A study of Mus musculus with 7 samples.

Results

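The 9 genes described here are stomach and trefoil genes: the trefoil factors Tff1, Tff2 and Tff3, the gastrokines Gkn1 and Gkn2, the gastric intrinsic factor gene Gif, the pepsinogen gene Pgc, and Atp4a and Atp4b, the subunits of the gastric proton pump. They were chosen by name from a list of stomach antigens, among them targets of autoimmune gastritis, out of 19937 genes measured with a probe set that carries 1 gene symbol. The choice was made with earlier results of these data known. All 9 were measured, each by 1 probe set, and Gif is listed in the platform annotation under its current symbol, Cblif. Expression was measured on Affymetrix arrays in sorted MHCIIhi MECs, the medullary epithelial cells of the thymus that carry much MHC class II. The reconRAG1KO group held 4 samples from NOD mice with null RAG1 and serves as the control, and the reconSCID group held 3 samples from NOD mice with SCID, a mutation of DNAPK. NOD is an inbred strain prone to autoimmunity, RAG1 is the recombinase of developing lymphocytes, and DNA-PK is a DNA repair kinase that most cells carry. Pups of both groups, 2 to 4 days old, were irradiated with 200 rad and given bone marrow into the peritoneum 6 h later, and the thymus was taken 6 to 8 weeks after that. The sources used here do not give the marrow donor, the sex of the mice or the number of thymi in a sample. The titles call the samples biological replicates without saying whether litters or days differed. The p-values set each difference against the spread between these samples. They treat the samples as independent, which the sources used here do not settle.

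Medullary epithelial cells transcribe genes of many peripheral organs, partly under the regulator Aire, so that T cells reactive to those organs can be deleted or diverted while still in the thymus. Stomach proteins are among the antigens shown in this way. The proton pump of the parietal cell is the main autoantigen of autoimmune gastritis in mice and people, and intrinsic factor is a target in pernicious anaemia. Trefoil factors are small secreted peptides, held in shape by disulfide bonds, that protect and repair mucous surfaces.

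No stomach or trefoil gene passed the test between the groups, and Pgc stood furthest apart. By limma with Benjamini-Hochberg adjustment over 34760 probe sets, 0 of the 9 genes had an adjusted p under 0.05 (background 0.00% of probe sets), while the unadjusted p was under 0.05 for 765 probe sets in the higher direction and for 394 in the lower one (1.13%). Pgc was the 1 member with an unadjusted p under 0.05 (lower, background 1.19% of genes) and the 1 member whose groups did not overlap (lower, background 1.54% of genes; 1.23% had every reconSCID sample above every control, and 0 members did). By sign, 8 of the 9 were lower in reconSCID (background 52.4% of genes), with a median log2 difference of -0.23 against -0.01 over all genes. That count was 2 of 9 when each array was centred on general epithelial genes (background 1.87% of genes). This scaling moved the median of all genes to 0.41, against 0.19 for the 9 genes.

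The arrays fell into 2 sets that cut across the groups. The smaller set was reconRAG1KO replicate 4 with reconSCID replicate 2 (r = 0.972 over all probe sets), the larger held the remaining 5 arrays (r of 0.976 to 0.990), and r across the sets was 0.922 to 0.947. Of 67 ribosomal protein genes 60 were lower in the smaller set, with a median log2 difference of -1.14. A batch is not named in the labels. Differences are therefore shown both without and with a block for the array set. The sets were defined from these same readings, so blocked p-values and intervals depend on a grouping found in the data. At an unadjusted limma p under 0.05 there were 4276 probe sets with the block against 1159 without it. Median log2 intensities lay between 6.47 and 6.59 per array. The sorted cell's own genes were bright: Aire averaged 11.20 in the controls (SD 0.49, n = 4) against 10.63 in reconSCID (SD 0.87, n = 3), and the MHC class II chaperone gene Cd74 averaged 13.39 and 13.35. Neither mutated gene checks a label. Prkdc, the DNA-PK gene, averaged 7.26 and 7.40, and the SCID change is in its coding sequence. Rag1 averaged 8.22 and 8.26, and lymphocytes that grow from donor marrow can express it.

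The readings of the 9 genes were modest, with means between 5.75 and 7.65 on the log2 scale. As a guide to where a reading carries little signal, the 1035 probe sets of olfactory receptor genes had a median of 4.19 and a 90th percentile of 5.62. Few of these reached Tff3, Tff1, Pgc, Atp4a or Atp4b: between 0.29% and 0.773% of them were at or above the member. Gkn1, Gif, Tff2 and Gkn2 read lower, with 3.19%, 4.25%, 6.18% and 8.99% at or above them. Gkn2 averaged 5.61 in reconSCID, with a lowest reading of 5.50, so it did not stand clear of that 90th percentile. Probe sets respond differently, so these readings only set each member beside the receptor genes and do not rank the amounts of transcript.

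**Figure D1:**
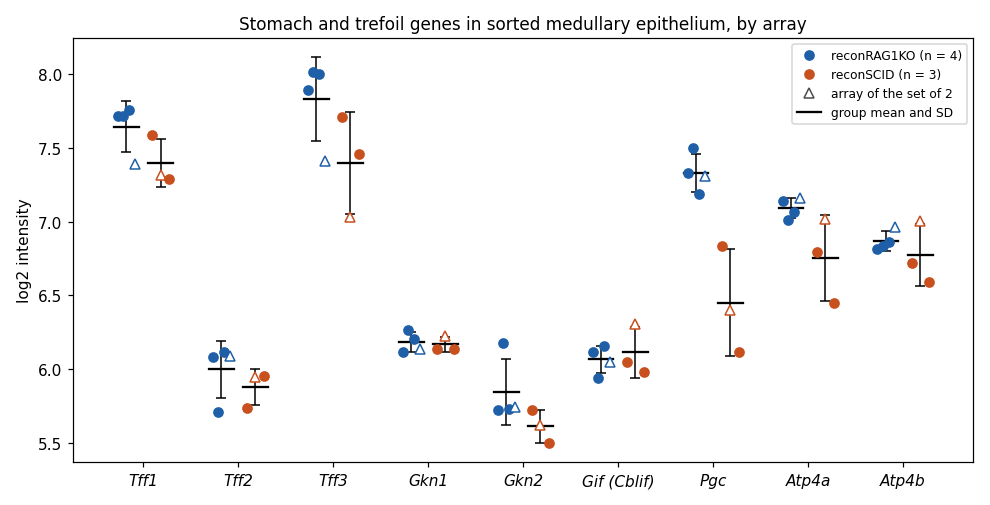
Log2 intensity of each stomach and trefoil gene (vertical axis) in every array, with reconRAG1KO in blue (n = 4) and reconSCID in orange (n = 3), group means as bars and SD as whiskers. Open triangles are reconRAG1KO replicate 4 and reconSCID replicate 2; the 3 Pgc readings of reconSCID (6.11 to 6.83) all lie under the 4 of reconRAG1KO (7.189 to 7.504), and in the other 8 genes the groups overlap.

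All 3 trefoil genes were lower in reconSCID by sign and none passed after adjustment. They are neighbours in the RefSeq annotation (GRCm38.p6), where Tff3, Tff2 and Tff1 follow each other with no other coding gene between them. In the gut Tff1 is a product of gastric surface mucous cells, Tff2 of mucous neck cells and Tff3 mainly of intestinal goblet cells.

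Tff3 measured 7.89, 8.02, 8.01 and 7.41 in reconRAG1KO replicates 1 to 4 and 7.71, 7.03 and 7.46 in reconSCID replicates 1 to 3. The groups overlapped, because reconRAG1KO replicate 4 read below 2 of the reconSCID samples. Within each array set they did not: the 3 controls of the larger set (7.89 to 8.02) were above reconSCID replicates 1 and 3, and reconRAG1KO replicate 4 was above reconSCID replicate 2. The log2 difference was -0.43 (95% interval -0.95 to 0.08) without the block and -0.39 (-0.58 to -0.19) with it. The blocked limma p of Tff3 was 0.0031 unadjusted and 0.25 adjusted over all probe sets. Leaving out any 1 sample kept the blocked interval below 0, with values from -0.46 to -0.31, whereas the unblocked difference came to -0.25 once reconSCID replicate 2 was left out. Between the array sets, smaller minus larger, Tff3 differed by -0.56 in reconRAG1KO and by -0.55 in reconSCID.

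Tff1 measured 7.72, 7.72, 7.76 and 7.39 in reconRAG1KO and 7.59, 7.32 and 7.29 in reconSCID. As in Tff3, the groups overlapped through reconRAG1KO replicate 4 and did not overlap within either array set. The log2 difference of Tff1 was -0.25 (-0.56 to 0.07), or -0.23 with the block, at an unadjusted limma p of 0.10 and 0.050. Leaving out reconSCID replicate 3 brought the blocked difference of Tff1 to -0.12. Tff1 differed by -0.29 in the larger set and by -0.072 in the smaller one, whereas Tff3 differed by -0.39 and -0.38. Tff2 measured 6.08, 5.71, 6.11 and 6.09 in reconRAG1KO and 5.74, 5.94 and 5.95 in reconSCID. The lowest Tff2 reading of all was a control, reconRAG1KO replicate 2, and the difference of -0.12 (-0.43 to 0.19) was smaller than the SD of 0.19 among the controls. It was -0.05 without reconSCID replicate 1 and -0.22 without reconRAG1KO replicate 2. With the block those values were -0.066 and -0.22, and Tff2 was -0.082 without reconRAG1KO replicate 3 and -0.20 without reconSCID replicate 3, against -0.13 with all samples.

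The 2 gastrokine genes, which code for secreted BRICHOS-domain proteins of surface mucous cells, also neighbour each other and Gkn3 in the annotation. Gkn1 measured 6.12, 6.27, 6.20 and 6.14 in reconRAG1KO and 6.14, 6.23 and 6.14 in reconSCID. All 7 arrays lay within 0.15, the narrowest range of the 9 genes, and the log2 difference was -0.01 (-0.21 to 0.18). Gkn2, whose protein forms a disulfide-linked dimer with that of Tff1, measured 5.72, 6.18, 5.73 and 5.75 in reconRAG1KO and 5.72, 5.62 and 5.50 in reconSCID. ReconRAG1KO replicate 2 was the high reading, and without it the difference of -0.23 (-0.57 to 0.11) was -0.12. The blocked difference, also -0.23, was -0.14 without reconSCID replicate 3. In both gastrokine genes 2 arrays held exactly the same deposited value, and these genes were among the 4 nearest to background.

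Gif codes for intrinsic factor, which binds vitamin B12 for uptake in the ileum and in mice is made by chief cells. Gif (listed as Cblif) measured 6.12, 5.94, 6.15 and 6.05 in reconRAG1KO and 6.05, 6.31 and 5.98 in reconSCID. The highest reading was a reconSCID sample and the lowest a control. The log2 difference of Gif was 0.05 (-0.22 to 0.31), the only positive one of the 9, and it was -0.06 in the 5 arrays of the larger set.

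Pgc codes for pepsinogen C, the precursor of an acid protease of the gastric gland. Its log2 readings were 7.328, 7.504, 7.189 and 7.308 in reconRAG1KO and 6.835, 6.400 and 6.113 in reconSCID, or 146 to 182 and 69.2 to 114 in the deposited intensity units. Every reconSCID sample lay under every control, and the samples of reconSCID spread more (SD 0.36, n = 3) than those of reconRAG1KO (SD 0.13, n = 4). The log2 difference of Pgc was -0.88 (-1.31 to -0.46), an intensity 0.54 times that of the controls. By limma the p of Pgc was 0.0019 before adjustment and 1 after it, and the exact two-sided permutation p was 0.029, the smallest that 35 arrangements of 7 arrays can give. In the blocked fit Pgc differed by -0.88 (-1.33 to -0.43), at an adjusted limma p of 0.25. It was -0.87 in the larger set and -0.91 between the 2 arrays of the smaller one. When any 1 sample was left out, the difference lay between -1.08 and -0.71 without the block and between -1.10 and -0.67 with it. Between the array sets, smaller minus larger, Pgc differed by -0.033 in reconRAG1KO and -0.074 in reconSCID.

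Pgc was also set against the other stomach and trefoil genes of the same array, as a description. Pgc minus the mean of the other 8 genes was 0.63, 0.79, 0.45 and 0.69 on the log2 scale in reconRAG1KO and 0.28, -0.16 and -0.31 in reconSCID. These values did not overlap between the groups, and this contrast was chosen after the readings had been seen, so no p is given for it.

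The proton pump exchanges protons for potassium at the surface of the parietal cell, with Atp4a as the catalytic alpha subunit and Atp4b as the glycosylated beta subunit. Atp4a measured 7.138, 7.015, 7.066 and 7.161 in reconRAG1KO and 6.793, 7.022 and 6.447 in reconSCID. The groups overlapped by a single pair, since reconSCID replicate 2 read just above reconRAG1KO replicate 2. The log2 difference of Atp4a was -0.34 (-0.68 to 0.002), at an unadjusted limma p of 0.051, and -0.36 (-0.64 to -0.08) with the block, at 0.019 unadjusted and 0.32 adjusted. ReconSCID replicate 3 carried much of it: without that sample the difference was -0.19, or -0.22 with the block. Atp4b measured 6.818, 6.835, 6.863 and 6.967 in reconRAG1KO and 6.720, 7.003 and 6.593 in reconSCID. The highest and the lowest reading of Atp4b both came from reconSCID, and the difference was -0.10 (-0.38 to 0.18), or -0.12 with the block. Without reconSCID replicate 3 it was -0.0093 and with the block -0.057. Without reconSCID replicate 2 it was -0.21 (-0.42 to -0.0036). The larger set alone, which the blocked fit also gives without either array of the smaller set, gave -0.18 (-0.34 to -0.029) at an unadjusted limma p of 0.029. Between the array sets the pump genes differed in the direction opposite to Tff3, with the smaller set higher by 0.09 (Atp4a) and 0.13 (Atp4b) in reconRAG1KO and by 0.40 and 0.35 in reconSCID. Whether the subunits differed from each other between the groups was not tested.

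**Figure D2:**
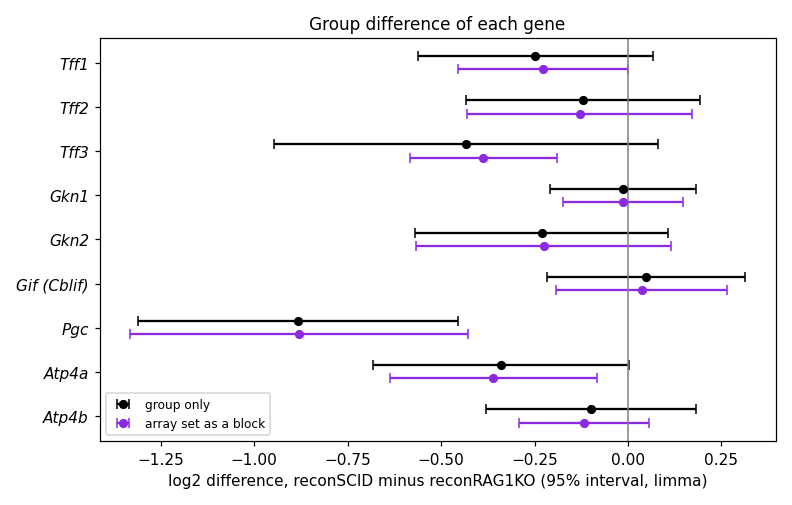
Log2 difference of each gene, reconSCID minus reconRAG1KO (horizontal axis), with its 95% limma interval, for the fit on group alone (black) and the fit with a block for the array set (purple). The interval of Pgc lies below 0 in both fits (-1.31 to -0.46 and -1.33 to -0.43), and those of Tff3 and Atp4a do so with the block. Centred on general epithelial genes, all differences but those of Pgc and Tff3 are above 0, and 1.87% of all genes are lower.

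In the blocked fit, 8 of the 9 genes were lower by sign (background 54.3% of genes). There, 3 of the 9 genes (Tff3, Pgc and Atp4a) were lower at an unadjusted p under 0.05 (background 6.75% of genes), and 0 passed after adjustment (background 0.00%). In 4 of the 9 (Tff1, Tff3, Pgc and Atp4a) the groups did not overlap within either set and reconSCID was lower (background 10.4% of genes). The median of the 9 differences was -0.23 with the block, -0.27 in the larger set and -0.13 between the 2 arrays of the smaller set. Without reconSCID replicate 3 the blocked median was -0.14. Without Pgc the median of the other 8 was -0.18.

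ReconSCID replicate 3 was the lowest of the 7 arrays in 5 of the 9 genes (Tff1, Gkn2, Pgc, Atp4a and Atp4b; background 23.7% of genes). The same sample was lowest in 18 of 19 general epithelial genes, such as those of keratins, claudins and Epcam. It was lowest in 0 of 11 B cell genes. Against the controls of the same array set, reconSCID replicates 1, 2 and 3 deviated by -0.51, -0.91 and -1.23 in Pgc, by -0.26, -0.38 and -0.51 in Tff3 and by -0.28, -0.14 and -0.63 in Atp4a. The general epithelial mean deviated by -0.38, -0.19 and -0.82 in them. Aire deviated by -0.26, -0.47 and -1.24, so reconSCID replicate 1 was nearest to its controls in Pgc, Tff3 and Aire, and replicate 2 in Atp4a and the epithelial mean.

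**Figure D3:**
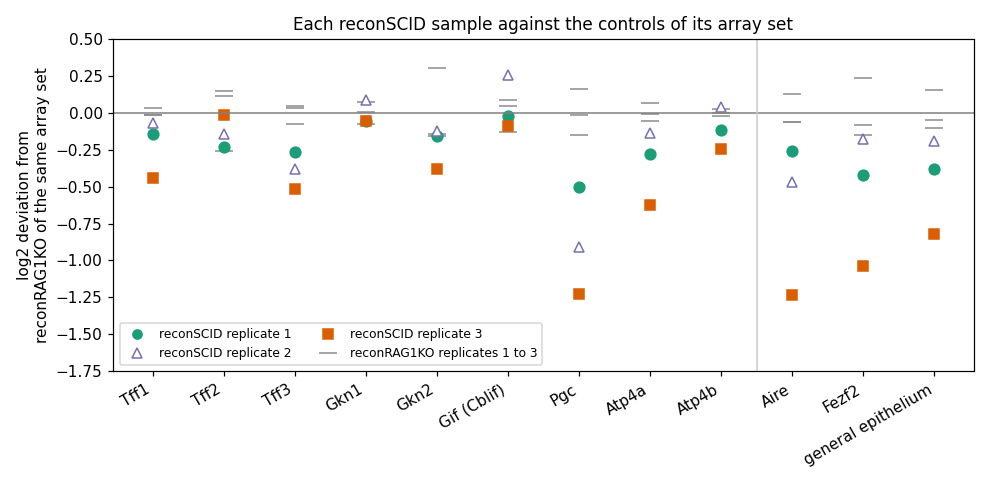
Log2 deviation of each reconSCID sample from the reconRAG1KO mean of its own array set (vertical axis) for the 9 genes and, right of the line, for Aire, Fezf2 and the mean of 19 general epithelial genes. Grey dashes are the 3 controls of the larger set; the smaller set has 1 control, so replicate 2 is set against a single array. ReconSCID replicate 3 is lowest for Pgc (-1.23), Aire (-1.24) and the epithelial mean (-0.82).

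Most marker lists of the sorted cells and of other cells also leaned in sign (background 52.4% of genes lower), with 0 of their genes past the adjusted limma test. General epithelial genes were lower in reconSCID in 19 of 19 cases, with a median of -0.44, and their summed intensity ran from 10335 to 17347 in reconRAG1KO and from 6049 to 14267 in reconSCID. Medullary epithelial genes were lower in 15 of 18 cases, with a median of -0.23 and sums of 44934 to 47947 and 41788 to 45282. B cell genes were higher in 11 of 11 cases, with a median of 0.91 and sums of 1205 to 1393 and 1354 to 4624. The mean B cell reading of reconSCID replicate 2 (6.82) lay inside the control range (6.63 to 6.84). Dendritic cell and macrophage genes were higher in 10 of 11 cases (median 0.20), and T cell genes split into 6 lower and 5 higher (median -0.015). Neutrophil genes were lower in 9 of 9, with a median of -1.49 and sums of 1110 to 9535 and 846 to 1678. Genes of gut-like and mucous epithelial cells of the thymus were lower in 11 of 14 cases (median -0.12). At an unadjusted limma p under 0.05, 4 of these 14 were lower, besides 1 general epithelial and 2 neutrophil genes (background 1.19% of genes). At that cut 5 of the 11 B cell genes were higher (background 0.863%), and the other marker lists had 0 genes in either direction. ReconSCID replicate 3 was lowest in 11 of the 14 (background 23.7% of genes). Cortical epithelial genes were lower in 7 of 8 cases (median -0.41) and the 2 red cell genes were lower. Endothelial and fibroblast genes were higher in 8 of 10 cases (median 0.21). No listed marker was at 0, since the smallest deposited intensity was 4.3. Fewer epithelial cells in the sort and less RNA of these genes per cell cannot be told apart in such samples, and neither was measured. With every array centred on the general epithelial genes, the difference of Pgc was -0.46 (-1.23 to 0.31) and that of Tff3 -0.01 (-1.01 to 0.99), and the other 7 genes were higher by 0.079 (Atp4a) to 0.47 (Gif). Adding the block to that centring, Pgc differed by -0.40 (-0.86 to 0.06) and was the 1 member still lower (background 1.41% of genes). The part of B cells, neutrophils, dendritic cells and macrophages in these differences was not tested.

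The promoters of 5 of the 9 genes (Gkn1, Gkn2, Gif, Pgc and Atp4a) were found in the RefSeq table of GRCm38.p6, each a window of 300 bases around the annotated start. Those with the largest and the smallest differences are shown, on the strand of the gene: Pgc (chr17:47726592-47726891, plus strand) and Atp4a (chr7:30711959-30712258, plus strand), then Gkn1 (chr6:87350866-87351165, minus strand) and Gif (chr19:11747309-11747608, plus strand). Capitals mark matches to TATAAA, the core of a TATA box, or to GATAA, the core bound by GATA factors of the stomach and gut, on either strand.
Pgc: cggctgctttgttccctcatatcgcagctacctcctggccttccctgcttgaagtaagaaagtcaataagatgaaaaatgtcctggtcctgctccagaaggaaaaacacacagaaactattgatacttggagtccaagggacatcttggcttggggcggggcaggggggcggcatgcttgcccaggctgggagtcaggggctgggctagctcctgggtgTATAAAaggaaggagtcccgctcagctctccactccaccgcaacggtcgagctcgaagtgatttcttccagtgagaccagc
Atp4a: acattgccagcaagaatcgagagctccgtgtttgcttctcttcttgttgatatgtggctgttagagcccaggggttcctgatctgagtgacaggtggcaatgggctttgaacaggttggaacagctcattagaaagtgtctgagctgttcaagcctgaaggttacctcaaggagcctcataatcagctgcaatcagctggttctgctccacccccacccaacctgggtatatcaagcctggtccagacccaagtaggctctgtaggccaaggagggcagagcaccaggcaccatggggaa
Gkn1: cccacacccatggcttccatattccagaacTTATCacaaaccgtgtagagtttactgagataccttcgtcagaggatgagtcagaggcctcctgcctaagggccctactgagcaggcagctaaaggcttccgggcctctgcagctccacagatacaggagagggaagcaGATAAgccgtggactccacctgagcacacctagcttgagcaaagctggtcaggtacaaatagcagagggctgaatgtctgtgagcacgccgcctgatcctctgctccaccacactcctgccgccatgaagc
Gif: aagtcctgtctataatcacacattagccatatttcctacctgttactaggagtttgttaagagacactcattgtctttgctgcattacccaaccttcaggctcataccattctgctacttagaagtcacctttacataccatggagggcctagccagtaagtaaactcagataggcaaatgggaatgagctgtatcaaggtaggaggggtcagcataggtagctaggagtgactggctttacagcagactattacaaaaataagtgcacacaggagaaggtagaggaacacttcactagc

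Pgc held TATAAA starting 31 bases before the start, the place of a TATA box, and Gkn2, which is not shown, held it 29 bases before its start. The motif was found on either strand in 13.6% of 32851 promoters of this length. GATAA was found in Gkn1, starting 81 bases before the start and, on the opposite strand, 220 bases before it, and in Gkn2, 122 and 217 bases before its start, against 25.4% of all promoters. Atp4a and Gif held neither set of letters in this window.

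For the 2 members with the highest readings, the genes with the most similar pattern over the 7 arrays were found after subtracting the mean of each array set, as a description with no test. Nearest to Tff3 were Zfp185 and Kmt5c (both r = 0.998), Elmod1 (0.995), Btbd11 (0.993) and Itpr3 (0.992). Nearest to Tff1 were Dock9, Epb41l5, Rhobtb3 and Col27a1 (all r = 0.996) and Glb1 (0.995). With so few arrays many genes come close: 216 of 18602 genes correlated above 0.95 with Tff3 and 399 with Tff1. Aire correlated at 0.978 with Tff1 (rank 92) and at 0.921 with Tff3 (rank 472), and the 2 trefoil genes at 0.895 with each other. The points share the low sample reconSCID replicate 3.

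Other genes of the stomach, 66 in all, were grouped by the gastric cell that they are known from. This list too was written with earlier results of these data known. Of these, 48 were lower in reconSCID and 18 higher (background 52.4% of genes lower), with a median of -0.08 against -0.01 over all genes. After adjustment 0 passed (limma). At an unadjusted p under 0.05, 5 were lower and 0 higher (background 1.19% and 0.863% of genes). In the blocked fit 11 were lower (background 6.75%). The smallest blocked p among them was that of Tm4sf5, named after its values were seen, which differed by -0.55 with the block (limma p 0.0045, adjusted 0.26) and by -0.71 without it. By sign, all 13 surface mucous genes were lower (background 52.4% of genes), by -0.72 to -0.03 with a median of -0.16. Lower too were 6 of 7 endocrine genes (-0.09), 4 of 5 neck cell genes (-0.17) and 6 of 8 chief cell genes (-0.04). Of the parietal genes 9 of 15 were lower (-0.05), and of the transcription factor genes 10 of 18 (-0.01). ReconSCID replicate 3 was lowest in 8 of the 13 surface mucous genes (background 23.7% of genes). Among them Vsig1, Gsdmc, Gkn3, Capn9 and Anxa10 read near background, with 16.4% to 24.8% of olfactory receptor probe sets at or above them. Centring on general epithelial genes left 7 of the 66 lower (background 1.87% of genes).

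The median of the 66 genes depended on single samples. It was 0.011 without reconSCID replicate 3, with 29 genes lower (background 47.8% of genes, at a median of 0.007). Without reconSCID replicate 2 it was -0.19, with 58 lower (background 59.7% of genes, at a median of -0.038). Without reconRAG1KO replicate 4 the median of the 66 was -0.003, with 33 lower (background 43.7% of genes, at a median of 0.022). Without reconSCID replicate 1 it was -0.05, with 40 lower (background 48.6% of genes, at a median of 0.005). In the blocked fit the median of the 66 was -0.10, and 52 of them were lower (background 54.3% of genes).

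Among the single genes, the histamine-forming enzyme gene Hdc, which the endocrine cells of the stomach and medullary epithelium share, averaged 9.90 in the controls (SD 0.14, n = 4) against 9.08 in reconSCID (SD 0.61, n = 3) and differed by -0.82. Sst and Chga, of gastric D cells and of endocrine cells in general, both differed by -0.51. Pglyrp1, a peptidoglycan binding protein gene that neutrophils also express, differed by -0.60, and the sulfotransferase gene Sult1c2 by -0.72. The groups did not overlap in Hdc, Pglyrp1 and Chga, 3 of the 66 genes (lower, background 1.54% of genes). The mucin gene Muc1 differed by -0.58 and the transporter gene Slc5a8 by -0.35, while Kcne2, the partner of the parietal potassium channel that supplies the pump, was 0.23 higher. Kcne2 read near background, at a mean of 5.65 with 9.86% of olfactory receptor probe sets at or above it. None of these 8 passed after adjustment.

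In 4 further genes of gastric mucous and endocrine cells the groups overlapped. Gkn3, next to Gkn1 and Gkn2, averaged 5.08 in the controls (SD 0.13, n = 4) against 5.03 in reconSCID (SD 0.071, n = 3). It read near background, with 22% of olfactory receptor probe sets at or above it. The surface mucin gene Muc5ac differed by -0.33 ± 0.20 (SE), the neck mucin gene Muc6 by -0.11 ± 0.30 (SE) and the hormone gene Gast by -0.09 ± 0.13 (SE). Among transcription factors that direct gastric fate, Gata4 differed by -0.21, Sox2 by -0.10, Foxa1 by -0.13, Gata6 by 0.11 and Esrrg, a regulator of parietal cells, by 0.05. The smallest unadjusted limma p among these was 0.28 (Gata4), and the 5 were picked from the list for their role in the stomach. Sox2 and Gata6 read near background, with 24.6% and 8.02% of olfactory receptor probe sets at or above them.

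**Figure D4:**
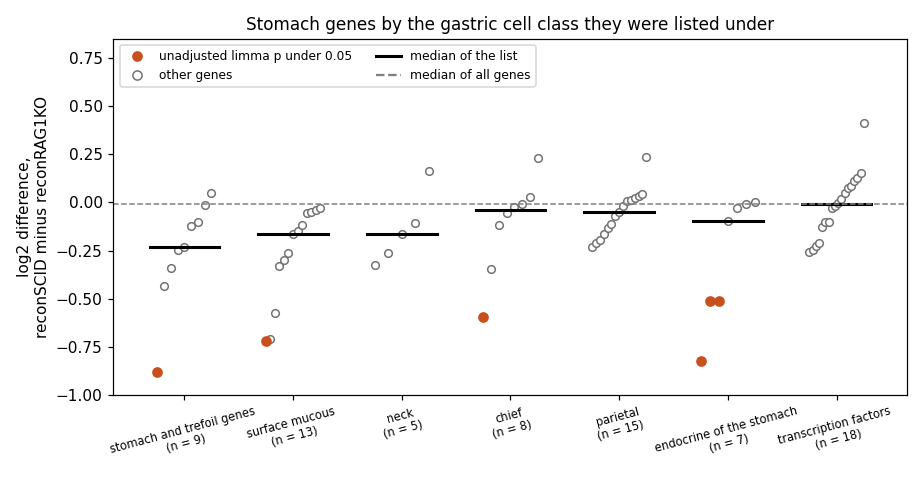
Log2 difference, reconSCID minus reconRAG1KO (vertical axis), of the 9 stomach and trefoil genes and of 66 other stomach genes by gastric cell class. Each point is a gene, filled where its unadjusted limma p is under 0.05; black bars are list medians (-0.23 for the 9 genes, -0.16 for surface mucous genes) and the dashed line is the median of all genes (-0.01), and centring on general epithelial genes shifts that median to 0.41.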

How the data were processed

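Total RNA (6 µg per sample, per the labels) was made into biotinylated cRNA and hybridised to Affymetrix arrays. The deposited values are intensities on a linear scale, 1 per probe set; the sources used here do not give how the authors summarised and normalized them. Groups came from the sample titles. Log2 was taken with no pseudocount. Of 34760 probe sets, 21640 had 1 gene symbol; a gene with several was represented by its brightest probe set. In 46.2% of probe sets at least 2 arrays held the same value. The number of arrays limits the precision.

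The group difference was fitted for all probe sets in limma 3.58.1 (lmFit, then eBayes, R 4.3.3) with a two-sided test. The p-values were adjusted by Benjamini-Hochberg with a threshold of 0.05. The fit without a block was also run on simulated data. That simulation had independent noise and no array sets, so it does not check the test for arrays that fall into sets. Intervals are 95% and unadjusted. The named genes were the 9 members, the 8 other stomach genes with the smallest p, Gkn3, Muc5ac, Muc6 and Gast, Aire, Fezf2, Epcam and Cd74, and 5 genes most like each of the 2 brightest members; Prkdc, Rag1 and the transcription factors were added later. Fezf2 differed by -0.53 and Epcam by -0.15. Members and lists were chosen with earlier results of these data known.

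Alternatives were quantile, median and epithelial centring, a pseudocount of 16, a filter on low values, a robust fit, array weights, blocks for replicate number or array set, and leaving out each sample.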

Additional observations from a re-analysis of the deposited data

Results flagged for a closer look

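In the reconRAG1KO group, 6 of 25 genes examined had 1 sample far from the other 3, by the gap to the nearest sample as a share of the group's range. Chance alone sets apart about 1 group in 20 if the samples are independent and normally distributed. Only these 25 genes were examined, so a share over all genes is not available and the count is no result about them. ReconRAG1KO replicate 4 is the 1 control of the smaller array set, and the part of that set in its flags was not tested. Of the 6 genes, 3 were stomach and trefoil genes. Tff1 was low in reconRAG1KO replicate 4, at 7.39 against 7.72 to 7.76, a share of 0.874. ReconRAG1KO replicate 2 was low in Tff2, at 5.71 against 6.08 to 6.11 (0.920), and high in Gkn2, at 6.18 against 5.72 to 5.75 (0.947). It was also low in Kcne2, at 5.41 against 5.58 to 5.60 (0.908). ReconRAG1KO replicate 4, of the smaller array set, was high in the mucin genes Muc5ac, at 7.31 against 6.65 to 6.72 (0.899), and Muc6, at 6.68 against 5.79 to 5.89 (0.885). The group of 3 reconSCID samples was not examined in this way.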

How the results depend on the processing

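Pgc was lower under all settings run, between -1.10 and -0.40. Epithelial centring moved nearly all genes up. It left 1.87% of genes lower, at a median of 0.41, and 1.41% with the block, at 0.47. Reversals of sign were as follows. Centred on general epithelial genes, Tff1 was 0.17, Tff2 0.30, Gkn1 0.41, Gkn2 0.19, Atp4a 0.079 and Atp4b 0.32, the median of the 9 genes 0.19 and that of the other stomach genes 0.34. With the array set as a block as well, a setting chosen after seeing the data, they were 0.25 (Tff1), 0.35 (Tff2), 0.092 (Tff3), 0.46 (Gkn1), 0.25 (Gkn2), 0.12 (Atp4a) and 0.36 (Atp4b), the medians were 0.25 and 0.38, and 4525 probe sets passed, 4515 of them higher. Gif was -0.017 with array weights and -0.055 in the larger set. Leaving out 1 sample, with or without the array set as a block, gave -0.057 to 0.015 for Gkn1, -0.055 to 0.11 for Gif and -0.19 to 0.011 for the other stomach genes. Elsewhere 0 probe sets passed adjustment except with array weights, where 57 passed and no member did. In the fit on group alone 1159 had an unadjusted p under 0.05. The cause of these changes was not tested. Same-numbered samples correlated at 0.47, -0.51 and 0.31 in their deviations from the group means. The samples numbered 2 lie in different array sets, so these values cannot show whether the numbers pair samples. With the replicate block 0 probe sets passed, Pgc differed by -0.89 and Tff3 by -0.57. The filter on low values kept 5 of the 9 genes. Low readings limit Gkn1, Gkn2, Gif and Tff2.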
